A study of Mus musculus with 10 samples.

Results

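The genes described here are 32 genes of homologous recombination and of the Fanconi anaemia pathway, measured in the lungs of C57BL/6J mice after irradiation of the thorax. They were taken from a list of gene names: each is the row of the deposited tables whose Ensembl identifier belongs to a listed symbol in GENCODE M21, and all 32 were found among 45786 rows. Of these, 31 passed the filter on low counts and were tested with the other genes, 15625 in all. Rad51b did not pass it and is given by its values only.

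Homologous recombination repairs a broken chromosome by copying the intact sister chromatid, so it works mainly in cells that are replicating or have replicated their DNA. The kinases ATM and ATR sense the damage and signal through CHK2 and CHK1, the broken end is trimmed to single-stranded DNA, and BRCA2 with PALB2 and BRCA1 prepares it to pair with the template. The Fanconi pathway repairs crosslinks between the strands: a core complex attaches ubiquitin to FANCD2 and FANCI, and the repair then passes through the same recombination steps. Many of these genes are transcribed most strongly when cells enter S phase, and few cells of an adult lung are dividing at any time.

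The study followed radiation-induced lung fibrosis in whole-lung cell suspensions. Irradiated mice received 12.5 Gy of gamma rays to the whole thorax, and control mice of the same age received 0 Gy. RNA was taken at 24 hours and at 1, 4, 12 and 32 weeks, and RNA from 3 mice was combined into each pool. There was 1 irradiated and 1 control pool per time, 5 pools of each kind, and no pool of a condition was repeated. All pools were of the same strain, for which the labels name no transgene or deletion, and age at irradiation is not analysed here. A pool averages its mice, so p-values measure the spread between pools of different times and not that between mice. In such bulk samples, fewer cells of a type and less RNA per cell cannot be told apart.

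Each library held between 8679551 and 17473108 fragments, the lowest in the 12-week control pool. The surfactant gene Sftpc was the lung's own marker and lay between 18591 and 32379 CPM (counts scaled to the same library depth) in the control pools. Cdkn1a, the p53 target that stops the cell cycle, marked the irradiated pools: it was 64.6 ± 11.0 CPM (SD, n = 5 pools) in the controls and 517, 275, 186, 110 and 82.8 CPM after irradiation, in order of time. All 8 genes of a p53 arrest list were called higher at 24 hours by edgeR's quasi-likelihood test with Benjamini-Hochberg adjustment over all genes tested (adjusted p under 0.05). Of all genes tested, 0.602% were called higher at 24 hours. Levels of cell type markers also moved. The summed level of 7 alveolar type 2 markers was 23053 to 40692 CPM in the controls. After irradiation it was 54956, 56304.5, 41206, 7319 and 8405 CPM, in order of time.

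At 24 hours after irradiation most of the repair genes stood lower, and Fancd2 and Brca1 fell. Of the 32 genes, 27 were below the control pool of the same time and 17 (53.1%) were below all 5 control pools, while none was above all 5. Among all genes tested, 21.2% were below all 5 controls at 24 hours and 22.1% were above. Fancd2 and Brca1 were called lower, 2 of the 31 tested, where 0.454% of all genes tested were called lower and 0.602% higher. The median log2 fold change against the same-time control was -0.69 for the 32 genes and -0.00414 for all genes tested. On the deposited FPKM, the unit scaled for transcript length, the median of the 32 was smaller, at -0.29 with a pseudocount of 1 and -0.55 with 0.1. No other gene of the list was called at 24 hours. Of the 31 tested, 11 had an unadjusted p under 0.05, beside 11.9% of all genes tested.

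At 1 week after irradiation the median was closer to 0. Of the 32 genes, 24 were below the same-time control and 14 (43.8%) were below all 5 controls, against 18.8% of all genes tested. Atm and Fancm (6.25%) were above all 5 controls, against 22.6% of all genes tested. The median log2 fold change against the same-time control was -0.23. None was called by edgeR or DESeq2 at 1 week, where edgeR called 0.0192% of all genes. Of the 31 tested, 5 had an unadjusted p under 0.05, beside 9.5% of all genes tested.

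From 4 weeks on, the direction was mixed. At 4 weeks 21 of the 32 genes were above the same-time control, 7 (21.9%) were above all 5 controls and 2 (6.25%) were below, beside 19.1% and 16.8% of all genes tested. At 12 weeks 8 (25%) were above all 5 controls and 5 (15.6%) below, beside 21.9% and 21.5%. At 32 weeks 5 were above and 5 below (15.6% each), beside 25.5% and 23.3%. From 4 weeks on the shares of the list above or below all 5 controls were thus near or under those of all genes. At 32 weeks the share with an unadjusted edgeR p under 0.05 was larger in the list than among all genes. The median log2 fold change of CPM was 0.24 at 4 weeks, 0.09 at 12 weeks and -0.33 at 32 weeks. On FPKM its sign turned at 32 weeks (0.0386 and 0.11 with pseudocounts of 1 and 0.1), and with a pseudocount of 0.1 it was larger at 4 weeks (0.39) and 12 weeks (0.27). Zranb3 was called higher at 32 weeks, where 0.576% of all genes were called higher and 0.25% lower. No gene of the list was called by edgeR at 4 or 12 weeks, in comparisons that called 0.0576% and 0% of all genes. DESeq2 called Zranb3 at 4 weeks and 0 genes of the list at 12 weeks. At each of these times 3 of the 31 tested had an unadjusted p under 0.05, beside 7.2% and 10.7% of all genes tested.

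**Figure D1:**
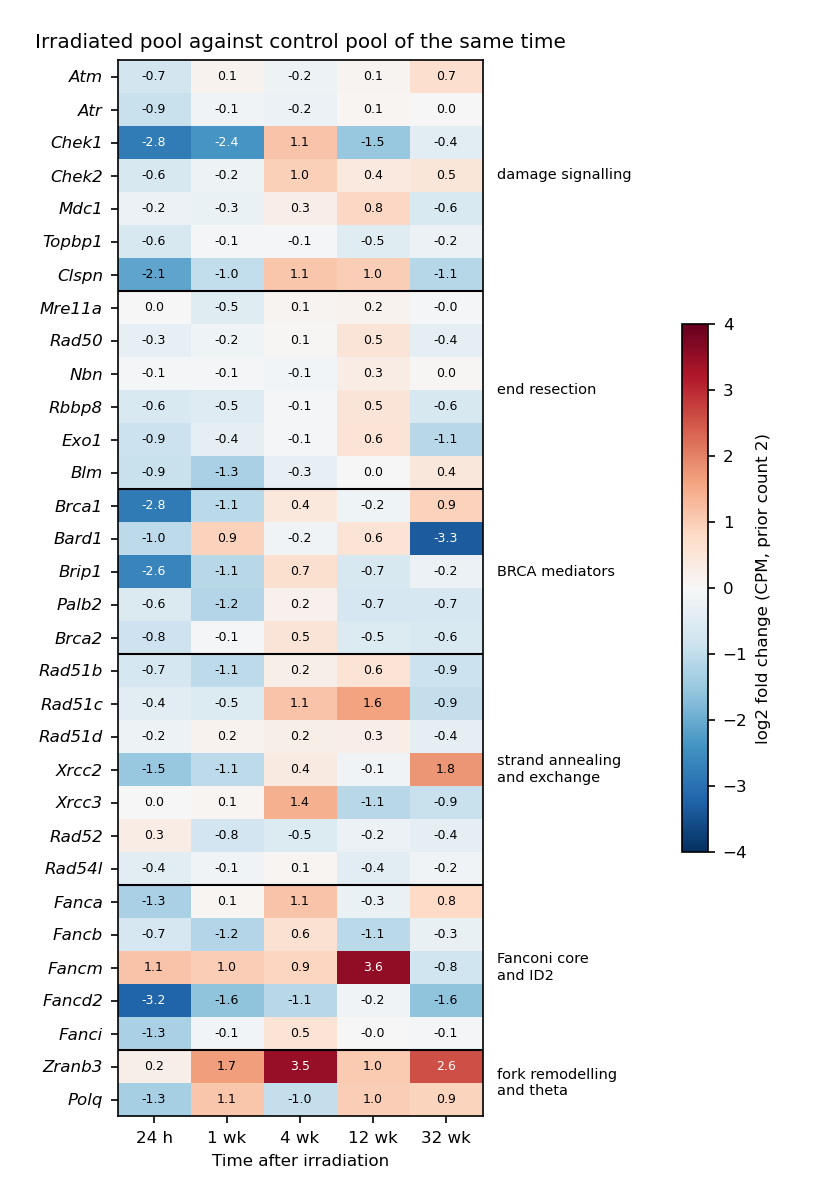
The log2 fold change of CPM, irradiated over control pool of the same time, for the 32 genes (rows, by role) at the 5 times (columns), with a prior count of 2 and 1 pool against 1 pool. Blue cells are lower and red cells higher after irradiation. The 24-hour column is blue for 27 genes, Fancd2 is blue at all 5 times and Zranb3 is red at all 5.

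Over the 5 times together, with time as a block, no gene of the list was called by edgeR, nor was any of all genes tested (0%). Of the 31 genes of the list tested, 3 had an unadjusted p under 0.05, beside 11.1% of all genes tested. DESeq2 called 2 of these 3, Fancd2 and Zranb3. Fancd2 and Topbp1 were lower in 5 of 5 pairs, as were 5.73% of all genes tested, and Zranb3 was higher in 5 of 5 pairs, as were 6.75%. Fancd2 alone in the list had all irradiated pools below all control pools, which 1.46% of all genes tested also had. No gene of the list had all irradiated pools above all control pools, beside 1.17% of all genes tested. A trend of the irradiation effect with the logarithm of time, and a trend of the control pools with time, were called for no gene of the list by edgeR or DESeq2. In both, edgeR called 0% of all genes. An unadjusted p under 0.05 was found for 4 and 0 of the 31 tested, beside 7.01% and 4.31% of all genes tested.

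The promoters of the genes were searched for 3 short motifs, because many S-phase genes carry E2F sites and many mitotic genes carry a CHR element, often near a CCAAT box. RefSeq promoter windows (GRCm38.p6, 250 bases before to 50 bases after the start) were at hand for 25 of the 32 genes. Of these, 7 held an E2F motif (TTTGGCGC, TTTGCCGC, TTTCGCGC or TTTCCCGC on either strand), or 28.0%, where 2.61% of 27025 gene symbols with a window held it: Chek2, Mdc1, Topbp1, Clspn, Brca2, Bard1 and Rad51c. In a list of 30 replication genes, 11 of the 24 with a window held it (45.8%). A CHR motif (TTTGAA or TTCGAA on either strand) was in 5 of the 25 windows (20%), beside 21.7% of all symbols and 76.2% of mitosis genes with a window. The CCAAT motif, on either strand, was in 16 of the 25 (64.0%), beside 41.1% of all symbols. The E2F and CHR strings do not overlap the CCAAT string in the stretches printed here. Those stretches, which end at the base before the start and hold no annotated exon, were chosen to show Brca1 and Brip1, which were among the lowest genes at 24 hours, Brca2 and Mdc1 with an E2F motif, and Zranb3, which rose. Capitals mark the matches, as letters only and not as sites shown to be bound.
Brca1: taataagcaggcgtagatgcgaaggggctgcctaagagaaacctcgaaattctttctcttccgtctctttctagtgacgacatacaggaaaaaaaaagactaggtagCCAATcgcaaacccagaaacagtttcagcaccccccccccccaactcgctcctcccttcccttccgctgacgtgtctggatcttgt
Brip1: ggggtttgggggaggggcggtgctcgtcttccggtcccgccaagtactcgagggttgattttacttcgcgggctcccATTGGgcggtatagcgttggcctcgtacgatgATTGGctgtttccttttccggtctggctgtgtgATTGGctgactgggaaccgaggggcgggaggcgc
Brca2: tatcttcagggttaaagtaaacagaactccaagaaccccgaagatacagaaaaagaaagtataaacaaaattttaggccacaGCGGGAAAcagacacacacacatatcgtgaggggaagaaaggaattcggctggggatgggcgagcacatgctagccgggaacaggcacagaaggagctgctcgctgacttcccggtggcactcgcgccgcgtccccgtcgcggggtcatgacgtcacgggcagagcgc
Mdc1: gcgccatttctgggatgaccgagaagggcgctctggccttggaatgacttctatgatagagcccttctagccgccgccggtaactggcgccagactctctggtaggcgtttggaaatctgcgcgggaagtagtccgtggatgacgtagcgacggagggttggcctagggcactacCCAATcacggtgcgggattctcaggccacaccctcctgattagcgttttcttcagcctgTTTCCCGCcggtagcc
Zranb3: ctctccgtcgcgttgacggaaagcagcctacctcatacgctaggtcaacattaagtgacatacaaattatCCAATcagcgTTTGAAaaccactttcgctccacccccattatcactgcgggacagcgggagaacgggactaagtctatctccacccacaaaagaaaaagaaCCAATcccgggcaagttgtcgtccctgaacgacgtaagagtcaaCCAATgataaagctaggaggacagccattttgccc
The stretch of Brca1 (chr11:101551956-101552148, minus strand) is 193 bases long and holds 1 CCAAT match at -86 to -82, counted from the start with its upstream neighbour at -1. That of Brip1 (chr11:86201194-86201369, minus strand) is 176 bases long and holds 3, all on the strand opposite to the gene. That of Brca2 (chr5:150522371-150522620, plus strand) holds an E2F match at -168 to -161. That of Mdc1 (chr17:35841248-35841497, plus strand) holds an E2F match at -16 to -9 and a CCAAT match. That of Zranb3 (chr1:128103048-128103297, minus strand, the upstream of 2 RefSeq starts) holds 3 CCAAT matches and a CHR match at -170 to -165. Of the genes called, the window of Brca1 had a CCAAT match only, that of Zranb3 had CCAAT and CHR matches, and Fancd2 had no window.

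Damage signalling genes were all lower at 24 hours: 7 of 7 were below the same-time control and 5 were below all 5 controls, with a median log2 fold change of -0.73 and none called. Chek1, the kinase that restrains cells with stalled replication forks, was at 2.64, 3.24, 1.56, 3.65 and 3.80 CPM in the control pools of 24 hours and 1, 4, 12 and 32 weeks. In the irradiated pools it was at 0.24, 0.503, 3.61, 1.16 and 2.79 CPM, in the same order, which all values by pool follow. The 24-hour, 1-week and 12-week irradiated pools were thus below every control, and the 4-week pool lay within the controls' range. At 24 hours Chek1 rested on 3 fragments, against 40 in the matched control, and was 11.0-fold lower (95% counting interval 3.50 to 55.5). Against the 5 controls it missed the threshold (log2 -3.57 ± 0.85 (SE), edgeR adjusted p = 0.099).

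Clspn encodes claspin, the adaptor through which ATR activates CHK1. It was at 2.64, 3.16, 2.08, 1.44 and 5.84 CPM in the controls and 0.481, 1.51, 4.68, 3.02 and 2.55 CPM after irradiation. The 24-hour pool alone was below every control, with 7 fragments against 40, and the controls themselves were lowest at 12 weeks and highest at 32 weeks. The difference at 24 hours missed the threshold (log2 -2.63 ± 0.92 (SE), edgeR adjusted p = 0.282).

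The apical kinases were more abundant. Atm, which senses double-strand breaks, was at 17.9, 21.6, 23.7, 21.7 and 14.2 CPM in the controls and 10.7, 23.8, 20.5, 23.4 and 22.4 CPM after irradiation. Only the 24-hour irradiated pool lay below the controls' range, and the 1-week pool lay above it by a margin smaller than the spread of the controls (log2 -0.88 ± 0.34 (SE), edgeR adjusted p = 0.331 at 24 hours). On FPKM the 24-hour irradiated pool of Atm, at 3.89, lay within the controls' range of 3.81 to 5.67. The 12- and 32-week irradiated pools lay below that range, at 3.64 and 2.68, the latter against 4.85 in its own control. The deposited count per FPKM of Atm varied 3.44-fold over the pools. Atr, which senses single-stranded DNA at stalled forks, was at 21.3, 16.4, 25.7, 21.7 and 27.8 CPM in the controls and 11.4, 14.9, 21.6, 23.0 and 28.0 CPM after irradiation. Its 24-hour and 1-week pools were below every control, and it reached the top of their range at 32 weeks (log2 -0.99 ± 0.33 (SE), edgeR adjusted p = 0.264 at 24 hours). Exons of Atr overlap antisense transcripts, and the NexteraXT libraries do not mark strand, so reads of the overlapping parts cannot be told apart.

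Topbp1, the scaffold that activates ATR, was the most abundant gene of the list per length, at 8.65 ± 3.09 FPKM (a fragment count scaled for library depth and transcript length; SD, n = 5 control pools). It was at 38.8, 36.1, 48.5, 66.3 and 47.4 CPM in the controls and 25.1, 34.6, 46.0, 47.8 and 40.2 CPM after irradiation. Each irradiated pool was below its own control, by log2 fold changes from -0.63 at 24 hours to -0.06 at 1 week, and the groups overlapped (log2 -0.92 ± 0.32 (SE), edgeR adjusted p = 0.288 at 24 hours). Chek2, the kinase downstream of ATM, stood higher late: it was at 12.0, 10.4, 7.46, 13.7 and 12.3 CPM in the controls and 7.61, 9.05, 14.7, 17.9 and 17.3 CPM after irradiation. Its 4-, 12- and 32-week irradiated pools were above every control, and its 24-hour pool lay just above the lowest control (log2 0.63 ± 0.34 (SE), edgeR adjusted p = 0.405 at 32 weeks). Mdc1, which binds phosphorylated histone H2AX beside a break, stayed within the controls' range at all 5 times.

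Of the 6 end-resection genes, 5 were below the same-time control and 3 below every control at 24 hours, with a median log2 fold change of -0.46. Mre11a, Rad50 and Nbn, whose products form the MRN complex that first binds a broken end, were at 4.81 ± 0.626, 6.33 ± 0.976 and 6.97 ± 1.46 FPKM in the controls (SD, n = 5), among the highest levels per length in the list. Their log2 fold changes at 24 hours against the 5 controls were -0.24, -0.18 and -0.02, and their edgeR adjusted p-values were 0.809, 0.859 and 0.993. At 12 weeks Mre11a and Rad50 were above every control, and Mre11a was below every control at 1 week, with none called. Mre11a shares exon sequence with Ankrd49.

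**Figure D2:**
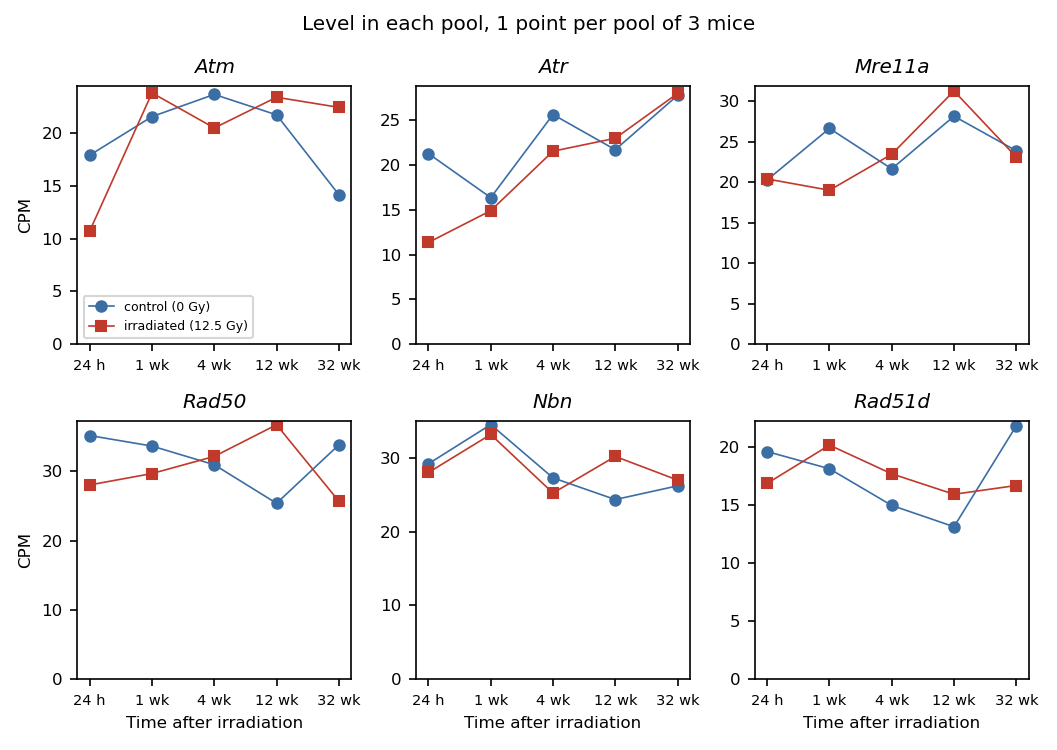
CPM of 6 genes in each pool by time after irradiation, with control pools as blue circles and irradiated pools as red squares, 1 point per pool of 3 mice and axes from 0. Atm and Atr are below every control at 24 hours, while the irradiated pools of Nbn and Rad51d lie within the range of the controls at all 5 times.

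Rbbp8, which encodes CtIP, the factor that starts resection, was at 29.1, 33.5, 25.5, 26.1 and 26.7 CPM in the controls and 19.2, 23.6, 24.1, 37.4 and 17.2 CPM after irradiation. It was below every control at 24 hours and at 1, 4 and 32 weeks, and above every control at 12 weeks, and no single time was called (log2 -0.71 ± 0.26 (SE), edgeR adjusted p = 0.204 at 32 weeks). Exo1, the exonuclease of long-range resection, was at 2.89, 3.57, 3.29, 3.90 and 3.06 CPM in the controls and 1.52, 2.68, 3.15, 5.81 and 1.32 CPM after irradiation. The 24-hour, 1-week and 32-week pools were below every control and the 12-week pool was above them (log2 -1.34 ± 0.52 (SE), edgeR adjusted p = 0.237 at 32 weeks). Both genes thus stood highest in the 12-week irradiated pool. Blm, the helicase that works with the resection nucleases and dissolves recombination intermediates, was at 5.45, 4.13, 5.72, 4.50 and 3.24 CPM in the controls and 2.88, 1.59, 4.53, 4.57 and 4.49 CPM after irradiation. Irradiated pools were below every control at 24 hours and 1 week and within their range from 4 weeks on (log2 -1.53 ± 0.53 (SE), edgeR adjusted p = 0.398 at 1 week).

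The BRCA1 and BRCA2 mediator genes stood lower together at 24 hours. The summed level of the 5 genes was 18.5 to 27.6 CPM in the controls, and 5.61, 12.7, 25.2, 19.3 and 21.8 CPM after irradiation. All 5 were below the same-time control at 24 hours and 4 were below every control, with a median log2 fold change of -1.03. Brca1 (ENSMUSG00000017146, chr11:101488764-101551955, minus strand) encodes the ubiquitin ligase subunit that favours recombination over end joining. It was at 4.37, 3.41, 5.20, 6.37 and 5.37 CPM in the controls, or 66, 54, 81, 54 and 100 fragments, and at 0.481, 1.51, 6.98, 5.58 and 10.4 CPM after irradiation, or 6, 19, 127, 71 and 140 fragments. The 24-hour and 1-week irradiated pools were below every control, and the 4-week and 32-week pools were above every control. On FPKM Brca1 lay within the controls' range at 32 weeks, at 1.65 against 2.64 in the 12-week control. At 24 hours it was 9.10-fold lower (95% counting interval 3.97 to 25.7) than the matched control and was called lower against the 5 controls (log2 -3.33 ± 0.64 (SE), edgeR adjusted p = 0.0421). The call was near the threshold: it was lost when any 1 of the 5 control pools was left out (adjusted p from 0.0601 to 0.072), with total count scaling (0.0537) and on the FPKM scale (limma adjusted p of 0.548 and 0.255 with pseudocounts of 1 and 0.1). Its higher value at 32 weeks was not called (log2 1.07 ± 0.38 (SE), edgeR adjusted p = 0.204).

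Brip1, the helicase that binds BRCA1 and is itself a Fanconi gene, was at 8.34, 8.67, 5.11, 10.1 and 6.76 CPM in the controls and 1.20, 3.94, 8.13, 6.35 and 5.73 CPM after irradiation. Its 24-hour and 1-week irradiated pools were below every control and the later ones were within their range. With 16 fragments against 125 it was 6.94-fold lower (95% counting interval 4.11 to 12.5) at 24 hours, and it missed the threshold narrowly (log2 -2.69 ± 0.55 (SE), edgeR adjusted p = 0.0527). It passed in 4 of 12 alternatives: with DESeq2, without the filter on low counts, with total count scaling and without the 4-week control pool. The other 8 did not call it, among them limma on FPKM with either pseudocount. Over the 12 its log2 fold change ranged from -2.81 to -0.62.

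Palb2, which bridges BRCA1 and BRCA2, was at 2.81, 3.41, 3.47, 4.33 and 4.08 CPM in the controls and 1.84, 1.43, 3.91, 2.63 and 2.48 CPM after irradiation. Every irradiated pool except that of 4 weeks was below every control (log2 -0.97 ± 0.50 (SE), edgeR adjusted p = 0.501 at 24 hours). Brca2, a central mediator of strand invasion, was at 2.97, 5.11, 3.55, 6.79 and 5.0 CPM in the controls and 1.6, 4.86, 5.14, 4.65 and 3.25 CPM after irradiation. Only its 24-hour pool was below every control (log2 -1.54 ± 0.59 (SE), edgeR adjusted p = 0.331). Bard1, the obligate partner of BRCA1, had the lowest level per length, 0.0823 ± 0.0594 FPKM in the controls (SD, n = 5). Its fragment numbers were 17, 6, 17, 0 and 28 in the controls and 6, 12, 18, 1 and 0 after irradiation. The 32-week irradiated pool had 0 fragments against 28 in its control, which is at least 6.69-fold lower with the irradiated pool set at 3 fragments (edgeR adjusted p = 0.288), and the 12-week control had 0 as well.

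**Figure D3:**
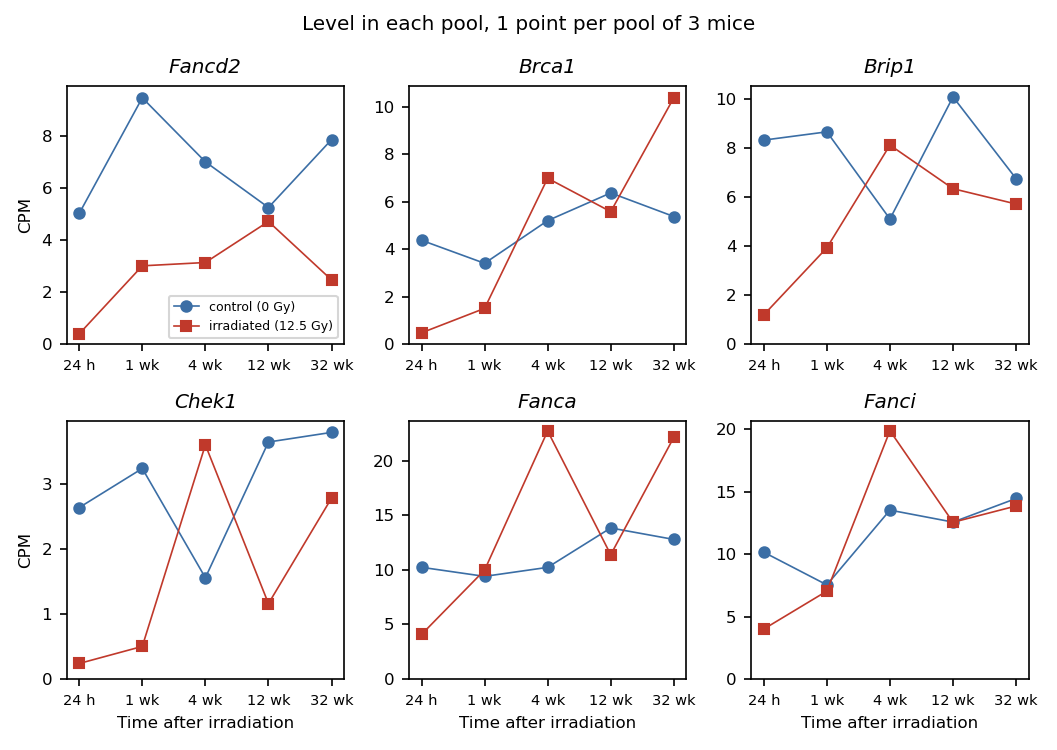
CPM of Fancd2, Brca1, Brip1, Chek1, Fanca and Fanci in each pool by time after irradiation, with control pools as blue circles and irradiated pools as red squares, 1 point per pool of 3 mice and axes from 0. All 6 genes have their lowest irradiated value at 24 hours, and at 4 weeks all but Fancd2 are above the matched control.

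The 7 genes Rad51b, Rad51c, Rad51d, Xrcc2, Xrcc3, Rad52 and Rad54l, which assist strand annealing and exchange, had a median log2 fold change of -0.43 at 24 hours, with 5 of 7 below the same-time control and 1 of 7 below every control. That gene was Rad54l, a motor protein of strand exchange. It was at 18.6, 18.6, 18.6, 20.9 and 15.8 CPM in the controls and 13.8, 16.9, 19.6, 15.6 and 14.2 CPM after irradiation, and its level in the controls varied least in the list (coefficient of variation 9.65%). It was below every control at 24 hours, 12 weeks and 32 weeks, never by as much as 1 log2 unit (log2 -0.43 ± 0.27 (SE), edgeR adjusted p = 0.612 at 24 hours). Its exons overlap Lrrc41.

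The other genes of this role gave no call. Rad51d had the highest level per length among them, 5.39 ± 1.20 FPKM in the controls (SD, n = 5), and lay within the controls' range at all 5 times. Rad51b, Rad51c, Xrcc2 and Xrcc3 were scarce, with means in the controls from 0.45 to 0.70 FPKM. Rad51b, which was not tested, had 8, 17, 15, 0 and 10 fragments in the controls and 3, 5, 21, 1 and 3 after irradiation. Xrcc2 was at 4.87, 4.7, 2.95, 6.62 and 0.834 CPM in the controls and 1.6, 2.18, 3.84, 6.04 and 3.25 CPM after irradiation, so that its 32-week control pool was the lowest of all 10. Rad52, an annealing factor, was at 5.94, 8.67, 9.10, 9.76 and 8.25 CPM in the controls and 7.37, 5.03, 6.22, 8.21 and 6.35 CPM after irradiation, below every control at 1 week only. Reads of Xrcc3 that fall in exons shared with Klc1 cannot be told apart.

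The Fanconi genes split. At 24 hours 4 of 5 were below the same-time control and 3 below every control, with a median log2 fold change of -1.29, while at 4 weeks 4 of 5 were above the same-time control. Fancd2 (ENSMUSG00000034023, chr6:113531682-113597017, plus strand), the protein that the core complex marks with ubiquitin, fell the furthest of the genes called. It was at 5.04, 9.49, 7.02, 5.26 and 7.88 CPM in the controls, or 76, 151, 110, 45 and 147 fragments, and at 0.401, 3.02, 3.15, 4.73 and 2.48 CPM after irradiation, or 5, 38, 58, 60 and 34 fragments. Every irradiated pool was below every control pool, though the 12-week pair lay close together. At 24 hours it was 12.6-fold lower (95% counting interval 5.16 to 39.8) than the matched control, and it was called lower against the 5 controls (log2 -4.08 ± 0.67 (SE), edgeR adjusted p = 0.0229).

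At 1, 4, 12 and 32 weeks the log2 fold changes of Fancd2 against the 5 controls were -1.20, -1.14, -0.55 and -1.48, with edgeR adjusted p-values of 0.495, 0.657, 0.689 and 0.178. The 24-hour call was lost without the 1-week control pool, where Fancd2 was highest (adjusted p = 0.0521). On the FPKM scale the fall was smaller, from 0.499 to 0.154 FPKM in the 24-hour pair, and limma did not call it (adjusted p of 0.487 and 0.328 with pseudocounts of 1 and 0.1). The deposited count per FPKM of Fancd2 varied 4.10-fold over the pools, so the effective transcript length behind FPKM differed between libraries. It varied 5.91-fold for Chek1 and 5.22-fold for Brca1, against 1.05-fold for Bard1 and 1.09-fold for Fanci. Exons of Fancd2 overlap the opposite-strand gene Fancd2os.

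Fanci, the partner that clamps DNA with FANCD2, was at 10.2, 7.54, 13.5, 12.6 and 14.5 CPM in the controls and 4.00, 7.04, 19.9, 12.6 and 13.9 CPM after irradiation. It was below every control at 24 hours and 1 week and above every control at 4 weeks (log2 -1.54 ± 0.45 (SE), edgeR adjusted p = 0.187 at 24 hours). Fanca, a subunit of the core complex, was at 10.2, 9.40, 10.2, 13.8 and 12.8 CPM in the controls and 4.09, 9.98, 22.7, 11.4 and 22.1 CPM after irradiation. It was below every control at 24 hours (log2 -1.46 ± 0.39 (SE), edgeR adjusted p = 0.146) and above every control at 4 weeks (log2 1.01 ± 0.29 (SE), edgeR adjusted p = 0.478) and 32 weeks (log2 0.97 ± 0.29 (SE), edgeR adjusted p = 0.138). Neither gene was called at any time by edgeR, while DESeq2 called both lower at 24 hours (adjusted p = 0.0246 for Fanci and 0.0156 for Fanca). Exons of Fanci overlap Polg and those of Fanca overlap Zfp276.

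Fancm, the translocase that brings the core complex to a stalled fork, was the Fanconi gene that stood higher. It was at 2.39, 3.89, 3.03, 0.934 and 6.95 CPM in the controls and 5.45, 7.80, 5.6, 12.7 and 3.95 CPM after irradiation, and it was above its own control in 4 of 5 pairs. At 12 weeks 162 fragments stood against 8 in the control, the shallowest library, and Fancm was 13.6-fold higher (95% counting interval 6.74 to 32.1) there. The difference was not called over the 5 times (log2 1.11 ± 0.55 (SE), edgeR adjusted p = 0.496) or at 12 weeks (log2 1.89 ± 0.65 (SE), edgeR adjusted p = 0.367). Fancb, an X-linked core subunit, was scarce at 0.37 ± 0.152 FPKM in the controls (SD, n = 5). It was below every control at 1 and 12 weeks and above every control at 4 weeks, with no call. Exons of Fancm overlap those of Gm47869 and Gm47870.

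Zranb3 (ENSMUSG00000036086, chr1:127954184-128103047, minus strand) rose at 32 weeks. It encodes an annealing helicase and endonuclease that binds ubiquitinated PCNA and remodels stalled forks. It was at 3.71, 2.11, 1.99, 6.79 and 8.15 CPM in the controls, or 55, 34, 31, 58 and 152 fragments, and at 4.41, 7.13, 24.0, 14.2 and 49.9 CPM after irradiation, or 59, 90, 438, 180 and 675 fragments. Each irradiated pool was above its own control, and the 4-, 12- and 32-week pools were above every control. Zranb3 was 12.0-fold higher (95% counting interval 8.36 to 17.9) than the matched control at 4 weeks and 6.12-fold higher (95% counting interval 5.13 to 7.35) at 32 weeks. Against the 5 controls it was called at 32 weeks (log2 3.46 ± 0.54 (SE), edgeR adjusted p = 0.0291) and not at 4 weeks (log2 2.4 ± 0.58 (SE), edgeR adjusted p = 0.428) or 12 weeks (log2 1.64 ± 0.62 (SE), edgeR adjusted p = 0.403).

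The rise of Zranb3 was also seen in FPKM, from 1.31 in the 32-week control to 13.6 in the irradiated pool. The 32-week call was lost without the 24-hour control pool (adjusted p = 0.0569), without the 1-week control pool (0.08), with total count scaling (0.0517) and with limma on FPKM at a pseudocount of 0.1 (0.158). The antisense gene Gm28800 overlaps exons of Zranb3. Markers of ciliated airway cells moved with Zranb3 in part: 6 of 7 were above every control at 4 weeks and 6 of 7 at 32 weeks, and their sum was 142 to 326 CPM in the controls and 92.1, 184, 405, 186 and 537 CPM after irradiation, with none of the 7 at 0 in any pool. Of all genes tested, 19.1% and 25.5% were above every control at 4 and 32 weeks. The sum of 4 club cell markers was 3633 to 13378 CPM in the controls and 18719 CPM in the 32-week irradiated pool. At 4 weeks the club cell sum was 9854 CPM after irradiation, below its own control at 13378 CPM. At 12 weeks, where Zranb3 was above every control, neither sum was. Their part in the rise of Zranb3 was not tested.

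**Figure D4:**
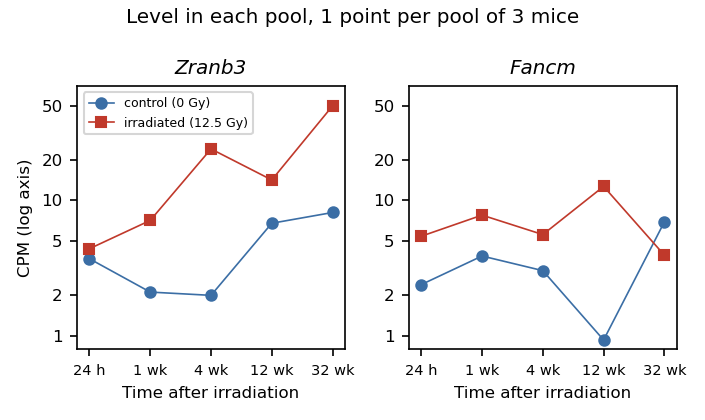
CPM of Zranb3 and Fancm in each pool by time after irradiation on a log axis, with control pools as blue circles and irradiated pools as red squares, 1 point per pool of 3 mice. Zranb3 is above its control at all 5 times, and Fancm at all but 32 weeks.

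Polq, the polymerase of theta-mediated end joining, an alternative to recombination, was near the detection limit. Its fragment numbers were 4, 14, 77, 9 and 2 in the controls and 0, 26, 45, 28 and 4 after irradiation. The 4-week control pool held the most, and no difference was called.

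Most other genes of the same pathways also stood below their control at 24 hours. Of 49 further recombination and Fanconi genes, 34 were below the same-time control, with a median log2 fold change of -0.13. At 24 hours 24 (49.0%) were below every control and 7 (14.3%) above, beside 21.2% and 22.1% of all genes tested. None of the 49 was called at any time by edgeR. At 24 hours 13 had an unadjusted p under 0.05, beside 11.9% of all genes tested, and DESeq2 called 6. Of 16 genes of non-homologous end joining, the repair route that needs no sister chromatid, 10 were below the same-time control, with a median of -0.21. Below every control were 5 (31.25%), and 3 (18.75%) were above. None was called by edgeR (4 had an unadjusted p under 0.05, and DESeq2 called 1). The share of the 32 genes below every control at 24 hours is thus larger than that of the end-joining list. The 49 further genes also had a larger share below every control than the end-joining list, but a smaller median fall. The differences between the lists were not tested.

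Genes of cell division were lower still. Of 30 replication genes, 30 were below the same-time control at 24 hours, 29 were below every control and 6 were called lower, with a median log2 fold change of -0.94. Of 25 mitosis genes, 25 were below the same-time control, 24 were below every control and 14 were called lower, with a median of -2.04. Among all genes tested, 21.2% were below every control at 24 hours and 0.454% were called lower. The summed mitosis level was 472 to 700 CPM in the controls and 122, 300, 708, 628 and 412 CPM after irradiation. The medians of the 32 repair genes (-0.69, -0.23, 0.24, 0.09 and -0.33), of the replication list (-0.94, -0.63, 0.11, 0.27 and -0.42) and of the mitosis list (-2.04, -0.79, 0.23, 0.36 and -0.73) had the same sign at each of the 5 times on CPM. At 32 weeks that of the repair genes was above 0 on FPKM, as given above.

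**Figure D5:**
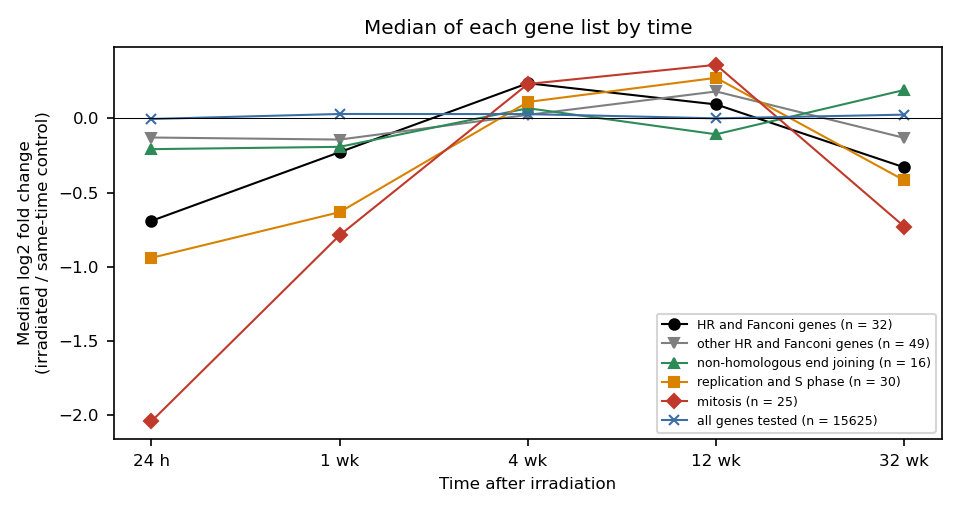
Median log2 fold change of CPM, irradiated over same-time control pool, for 6 gene lists (lines) at the 5 times after irradiation. The 32 repair genes lie between the mitosis and replication lists and zero at 24 hours, at -0.69 against -2.04 and -0.94.

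Markers of B cells, T cells and thymocytes also stood lower at 24 hours and 1 week. Among all genes tested, 21.2% and 18.8% were below every control at these times. Of 10 B-cell markers, 9 were below every control at 24 hours and 7 at 1 week, and their sum was 1284 to 1900 CPM in the controls and 709, 918, 1442, 1935 and 1350 CPM after irradiation. Of 10 T-cell markers, 9 were below every control at 24 hours and 10 at 1 week, and their sum was 472 to 952 CPM in the controls and 242, 310, 642, 650 and 409 CPM after irradiation. None of these 20 markers was at 0 in any pool. Of 6 thymocyte markers, 5 were below every control at 24 hours and again at 1 week, and their sum was 52.0 to 341 CPM in the controls and 26.5, 24.5, 153, 183 and 84.0 CPM after irradiation. Rag1, Rag2 and Ptcra were at 0 in the 24-hour irradiated pool, Rag1 and Ptcra in that of 1 week, and Rag2 in the 1-week control. NK-cell markers differed at 24 hours: 0 of 6 were below every control and 1 was above, with a median log2 fold change of -0.04. At 1 week all 6 NK-cell markers were below the same-time control and 1 was below every control, with a median of -0.55. At 4 weeks, where the median of the repair genes was 0.24, 8 of the 10 T-cell markers and 6 of the 6 thymocyte markers were below the same-time control, with medians of -0.42 and -0.95, while 9 of the 10 B-cell markers were above it. The 7 ciliated-cell markers were all below every control at 24 hours, with a median log2 fold change of -0.75 and 1 called lower, and 1 of 7 was below every control at 1 week. The part of dividing cells, of lymphocytes and of ciliated cells in the lower repair-gene levels at 24 hours and 1 week was not tested.

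The order of the folds of the 32 genes was most alike between 24 hours and 1 week. Across the genes, the log2 fold changes of the 24-hour pair and of the 1-week pair, which share no pool, had a Pearson correlation of 0.58 and a Spearman correlation of 0.41 (n = 32 genes), and 25 genes had the same sign. For 1 week and 12 weeks the values were 0.53 and 0.38, with 18 genes of the same sign, and for 24 hours and 32 weeks they were 0.05 and -0.07, with 19. Over the 10 combinations of times the Spearman correlation ranged from -0.13 to 0.41. All genes of a pair come from the same libraries, genes are not independent replicates, and scarce genes carry large counting error, so these values only describe the list.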

How the data were processed

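RNA of 10 pools, each of 3 mice, was made into libraries with Clontech and NexteraXT kits, per the labels' protocols. The authors deposited expected counts and FPKM per gene, made with Trimmomatic 0.32, STAR 2.4.2a, Cufflinks 2.0.2 and Cuffdiff on GRCm38.p4, per the submitters' processing notes. The deposited expected counts are scaled per library: 78.7% to 80.4% of values lie within 0.05 of a whole multiple of a step of 0.576 to 1.38, and fragments are the count divided by that step. Symbols, positions and exon overlaps came from GENCODE M21.

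Expected counts were rounded, filtered with filterByExpr (minimum count 10), scaled by TMM over all pools (factors 0.933 to 1.086) and tested with edgeR 4.0.16 (R 4.3.3), quasi-likelihood F test, two-sided, with Benjamini-Hochberg adjustment over 15625 genes and a threshold of 0.05. The 5 times together had time as a block (4 residual degrees of freedom). At each time 1 irradiated pool was tested against all 5 controls (4), on the assumption that it varies like them, so its age is not told apart from irradiation. The trend with log2 days had 3, and that in controls 6. Each SE shown is the absolute log2 fold change divided by the square root of its F statistic, so it is derived from the test. Changes against the same-time pool are log2 CPM differences at a prior count of 2, with no test. Statements that a pool lay within, above or below the controls are on CPM unless FPKM is named, and FPKM can place it otherwise. The median at 24 hours is -0.68 without the 1 pair that holds a 0, and that at 12 weeks is 0.05 without 2 such pairs. Those 2 are Bard1 and Rad51b, with 0 fragments in the control and 1 in the irradiated pool, and they count as higher at 12 weeks. Counting intervals are exact binomial at 95% and cover counting error only. Alternatives were DESeq2 1.42.0, limma 3.58.1 on log2(FPKM + 1 or 0.1), other scalings, no filter and leaving out pools.

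Members and lists were chosen with earlier results of these data known. Values by pool are given for genes called in any test, and for those with a mean of at least 20 deposited counts whose irradiated pool at 24 hours or 32 weeks lay outside the range of the controls. Fancm, Xrcc2, Rad52, Bard1 and Polq were added after their values were seen. Fragment numbers of Rad51b are given because it was not tested.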

Additional observations from a re-analysis of the deposited data

Results flagged for a closer look

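Of 62 groups of 5 pools, the control or irradiated pools of a gene, 2 had a pool far from the other pools of its group, with the gap to its neighbour above 0.71 of the whole range. Chance gives about 1 in 20 such groups, and 2 of 62 is not more than that. Atm was 10.7 CPM in the 24-hour irradiated pool, the lowest of the irradiated pools, which otherwise lay between 20.5 and 23.8 CPM. Polq was 4.94 CPM in the 4-week control pool, where the other controls lay between 0.0927 and 1.02 CPM. Irradiated pools differ in time, so a pool that stands apart in its group is also 1 time point, and the time and the pool cannot be told apart.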

How the results depend on the processing

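The number of listed genes called depended on the tool. DESeq2 called 2 over the 5 times (Fancd2 and Zranb3), 6 at 24 hours (Chek1, Brca1, Brip1, Fanca, Fancd2 and Fanci) and 1 at 4 weeks (Zranb3, adjusted p = 0.0434). limma on FPKM called 0 at 24 hours with either pseudocount (1 or 0.1), and 0 at 32 weeks with 0.1. Total count scaling gave 0 at 32 weeks, where it also shifted the median of all genes tested by -0.17. Leaving out 1 control pool gave 0 to 2 calls at 24 hours (0 without the 1-week control) and 0 to 1 at 32 weeks (0 without the 24-hour or the 1-week control). In all these, the genes named kept their direction. The cause of the lost and gained calls was not tested.

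The median log2 fold change of the 32 genes at 24 hours was -0.29 and -0.55 on FPKM with pseudocounts of 1 and 0.1. With a pseudocount of 0.1 it was 0.39 at 4 weeks and 0.27 at 12 weeks. At 32 weeks it was -0.50 with total count scaling, and 0.0386 and 0.11 on FPKM with pseudocounts of 1 and 0.1, so its sign there rests on the unit. The number of genes below every control ranged from 16 to 20 at 24 hours and from 10 to 17 at 1 week, over other scalings, FPKM and leaving out 1 control, alternatives chosen after seeing the data. Calls over all genes ranged from 66 to 543 at 24 hours (165 as reported), 8 to 857 at 32 weeks (129), 0 to 252 at 1 week (3), 5 to 95 at 4 weeks (9), 0 to 238 at 12 weeks (0), 0 to 258 over the 5 times (0), 0 to 60 for a trend of the effect (0) and 0 to 26 for one in controls (0). The labels give pools no replicate numbers, and the fit over the 5 times is paired by time. Depth limits the scarce genes most: Chek1, Fancd2 and Brca1 rest on 3, 5 and 6 fragments at 24 hours, where a count of 0 allows up to 3 fragments.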
